A study of Mus musculus with 10 samples.

Results

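The nuclear-encoded subunits of the oxidative phosphorylation complexes were described in blood neutrophils of mice. Members were all genes whose symbol in the array's probe-gene table starts with Ndufa, Ndufb, Ndufc, Ndufs or Ndufv (without the Ndufaf assembly factors), Sdha to Sdhd, Uqcr, Cox4 to Cox8, or Atp5. This gave 80 of the 17097 genes with a probe set of their own, and 76 of them were among the 10734 genes tested. Where a gene had several probe sets, the one brightest on average over the 10 arrays stood for it. Complex I had 35 members (34 tested), complex II had 4, complex III had 7, complex IV had 17 (14 tested) and complex V had 17. The members not tested, Ndufc2, Cox4i2, Cox7a1 and Cox7b2, had means at or below 4.58, the median of all probe sets.

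The study asked how much of the spread in neutrophil gene expression lies between animals and how much is technical. All 10 animals were untreated male C57BL/6 mice (C57BL/6J in the supplier's description) aged 3 months, kept for 9 days of acclimatization. Blood of 5 mice was handled animal by animal (mice 1 to 5). Blood of the other 5 was combined and then divided into 5 portions (pool arrays 1 to 5), so the pool is 1 sample whose replicates carry technical spread only. Neutrophils were taken out of each portion with an antibody to Ly6G on magnetic columns, with a purity between 71.5 and 99.5%, not given by sample in the sources used here. Values are log2 intensities, so a difference of 1 is a doubling.

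Oxidative phosphorylation makes ATP in the inner mitochondrial membrane. Complex I (NADH dehydrogenase) and complex II (succinate dehydrogenase) pass electrons to ubiquinone, complex III hands them to cytochrome c, and complex IV (cytochrome c oxidase) to oxygen. The proton gradient built on the way drives complex V, the ATP synthase. Mature neutrophils have few mitochondria and are known for drawing most of their ATP from glycolysis.

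Promoters of 64 members were found in the RefSeq table of assembly GRCm38.p6 (69 promoters, each from 250 bases before to 50 bases after a transcription start, of 32851 in all). The NRF1 motif was searched as GCATGCGC, on either strand, and was in 10 of the 69 (14.5%) against 2.71% of all promoters. The ETS motif CCGGAAG, on either strand, was in 15 (21.7%) against 8.86%. The YY1 motif AAGATGGC was in 10 (14.5%) against 2.75%, and TATAAA was in 9 (13.0%) against 13.6%. Matches of different motifs did not overlap (0 cases), but the NRF1 letters can match both strands in 1 overlapping run. A match is a run of letters, not a measured binding site. The 180 bases before the start are shown for 3 members that behaved differently between mice: Ndufs3 (chr2:90904722-90904901, minus strand), which was low in mice 4 and 5, Atp5g2 (chr15:102671048-102671227, minus strand), also low in both, and Cox6a1 (chr5:115348959-115349138, minus strand), highest in mouse 5. Capitals mark the ETS motif in Ndufs3, such a run of the NRF1 motif in Atp5g2, and in Cox6a1 first a run of the NRF1 motif and then the ETS motif on the opposite strand.
Ndufs3: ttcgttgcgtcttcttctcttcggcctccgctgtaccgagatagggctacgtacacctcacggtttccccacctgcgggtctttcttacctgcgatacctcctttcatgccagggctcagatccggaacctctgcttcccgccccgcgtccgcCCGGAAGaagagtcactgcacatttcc
Atp5g2: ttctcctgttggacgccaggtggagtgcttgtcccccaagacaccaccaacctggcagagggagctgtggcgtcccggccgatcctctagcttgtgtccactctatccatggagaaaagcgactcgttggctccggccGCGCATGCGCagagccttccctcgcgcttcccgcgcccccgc
Cox6a1: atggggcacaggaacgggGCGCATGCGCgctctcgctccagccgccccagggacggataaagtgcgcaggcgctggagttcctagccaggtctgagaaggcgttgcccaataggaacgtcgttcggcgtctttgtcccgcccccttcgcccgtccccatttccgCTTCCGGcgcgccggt

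The array of mouse 5 stood apart from the rest, so counts of calls are given with and without it, and each adjusted p of the variance test with all mice is followed by that without it. Its 95th percentile of signal was 7.46 against 8.72 to 9.25 on the other 9 arrays, and its mean correlation with the other mice was 0.757 against 0.891 to 0.915 for mice 1 to 4. Its Gapdh 3′ control read 7.78 against 11.62 to 12.25. The 3′ minus 5′ difference of the Actb control, a sign of RNA length, was 4.41 in mouse 3 and 4.57 in mouse 5, while mice 1, 2 and 4 had 1.28 to 1.71 and the pool arrays 1.36 to 2.72. That of the Gapdh control was lowest in mouse 5, at 3.05 against 3.38 to 6.16 on the other arrays, and highest in mouse 3. In mouse 5 the Gapdh 5′ control read 4.73, near that array's median signal of 4.74. It was too dim there for this difference to be set against that of Actb. Neutrophil markers (10 of 12 listed were tested) had a mean deviation from their 10-array means of -2.58 in mouse 5 and 1.24 in mouse 3, against -0.57 to -0.32 in mice 1, 2 and 4 and 0.01 to 0.94 in the pool. Of these markers, S100a8 read 12.67 or more and S100a9 12.28 or more on every array. S100a8 was highest in mouse 5, at 13.29. In mouse 5, Csf3r read 9.68, Cxcr2 6.67, Mmp9 8.38, Lcn2 5.36 and Itgam 4.28, each below every other array. Camp, a granule protein, read 11.80 in mouse 3, 9.50 to 10.65 in the pool and 6.12 to 7.29 in the other mice, of which mouse 5 was the highest. Ly6g and Retnlg were not analysed here. B cell markers (9 of 13 tested) had a mean deviation of -2.59 in mouse 4 and -1.56 in mouse 5, against 0.88 to 1.59 in mice 1 to 3. Erythroid markers (3 of 6 tested) stood at -1.58 in mouse 4 and -1.32 in mouse 5, against 0.39 to 0.97 in mice 1 to 3 and -0.52 to 1.39 in the pool. T cell markers (4 of 10 tested) stood at 0.60 in mouse 5, against -0.18 to 0.07 in mice 1 to 4. Monocyte markers (6 of 7 tested) stood at 0.51 in mouse 4 and -0.80 in mouse 5, against -0.00 to 0.31 in mice 1 to 3. NK cell markers (5 of 7 tested) stood at -0.53 in mouse 4 and 0.02 in mouse 5, against -0.04 to 0.09 in mice 1 to 3. Platelet markers (6 of 7 tested) ran from -1.66 to -0.23 in the mice and from 0.76 to 1.15 in the pool. In such bulk samples, fewer cells of a type and less RNA per cell cannot be told apart.

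Members of the complexes differed between mice mainly through mice 5 and 4. The variance between the 5 mice was larger than the variance between the 5 pool arrays for 52 of 76 tested members (68.4%), against 66.8% of all 10734 tested genes (moderated F test in limma, one-sided, adjusted p under 0.05). Without mouse 5 the count was 17 (22.4%) against 20.3%, and without mice 4 and 5 it was 0 (4 at an unadjusted p under 0.05: Uqcrq, Sdhc, Ndufs4 and Atp5l) against 0.708% (8.93% unadjusted). These shares were close to the background each time. In the opposite direction limma called 0 members in each of these comparisons, with 0, 1 and 6 at an unadjusted p under 0.05 (0.54%, 2.95% and 7.41% of all tested genes). The median SD between mice was 0.82 over members and 0.57 over all tested genes, and 0.46 against 0.33 without mouse 5. Without mice 4 and 5 both were 0.19. Between pool arrays the median SD was 0.29 over members and 0.23 over all tested genes.

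**Figure D1:**
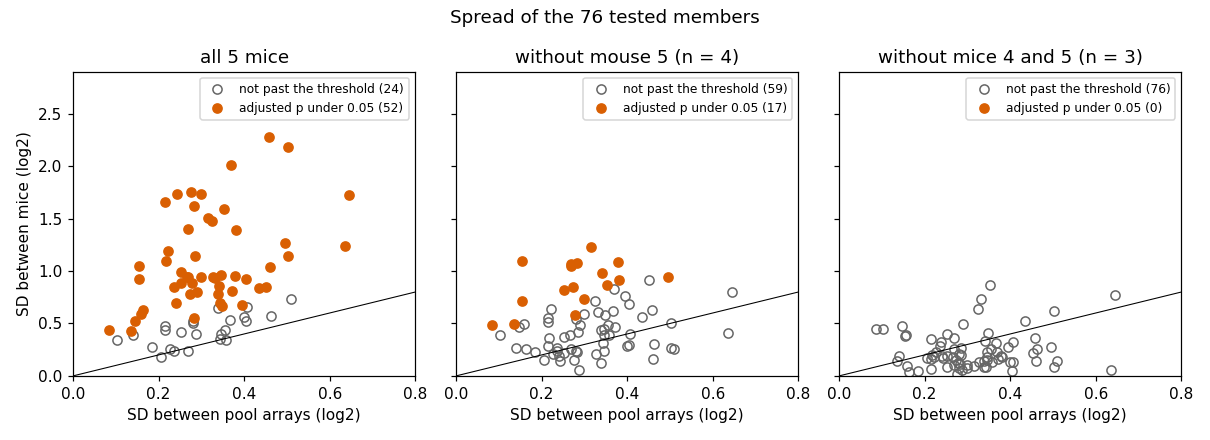
Each point is a tested member, with its SD between pool arrays on the x axis and between mice on the y axis (both log2); filled points passed the limma variance test and the line marks equal SDs. With all 5 mice 52 of 76 members passed (68.4%, against 66.8% of all tested genes). Without mouse 5 17 passed (22.4%, against 20.3%), and without mice 4 and 5 0 did (against 0.708%).

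The 5 complexes had unlike levels in mouse 5. A complex level is the median over its tested members of each gene's deviation from its 10-array mean. In mouse 5 it was -0.70 for complex I, -0.99 for complex II, -1.52 for complex III and -1.50 for complex V. For complex IV it was 0.61, where the other mice lay between -0.38 and -0.24 and the pool between -0.12 and 0.64. The median of all tested genes in mouse 5 was -0.44. Against the mean of mice 1 to 4, mouse 5 was higher for 12 of 14 members of complex IV, 10 of 34 of complex I, 1 of 4 of complex II, 1 of 7 of complex III and 2 of 17 of complex V, and for 38.4% of all tested genes. After a second quantile normalization the all-gene median in mouse 5 was -0.05, and the complex I level turned to 0.34, with 19 of 34 members higher. The directions of the other 4 complexes in mouse 5 were kept under that setting and under centring of the arrays. They were also kept with the median probe set per gene, but that rule keeps the brightest probe set of a gene with 2. It left the levels of complexes IV and V in mouse 5 at 0.61 and -1.50, so it says little about their other probe sets.

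**Figure D2:**
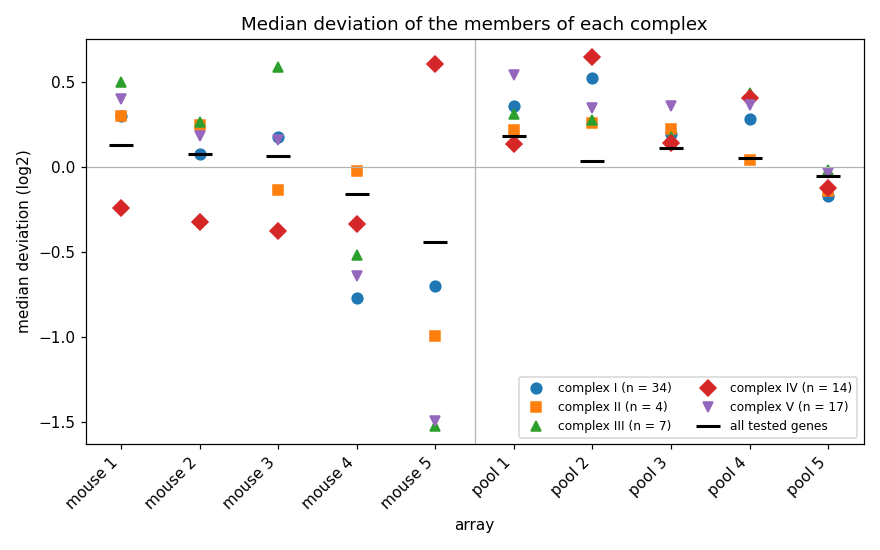
Points give the median deviation (log2) of the tested members of each complex, and bars that of all tested genes, on each of the 10 arrays. Complex IV is the only complex above 0 in mouse 5 (0.61), while complexes III and V are at -1.52 and -1.50.

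**Figure D3:**
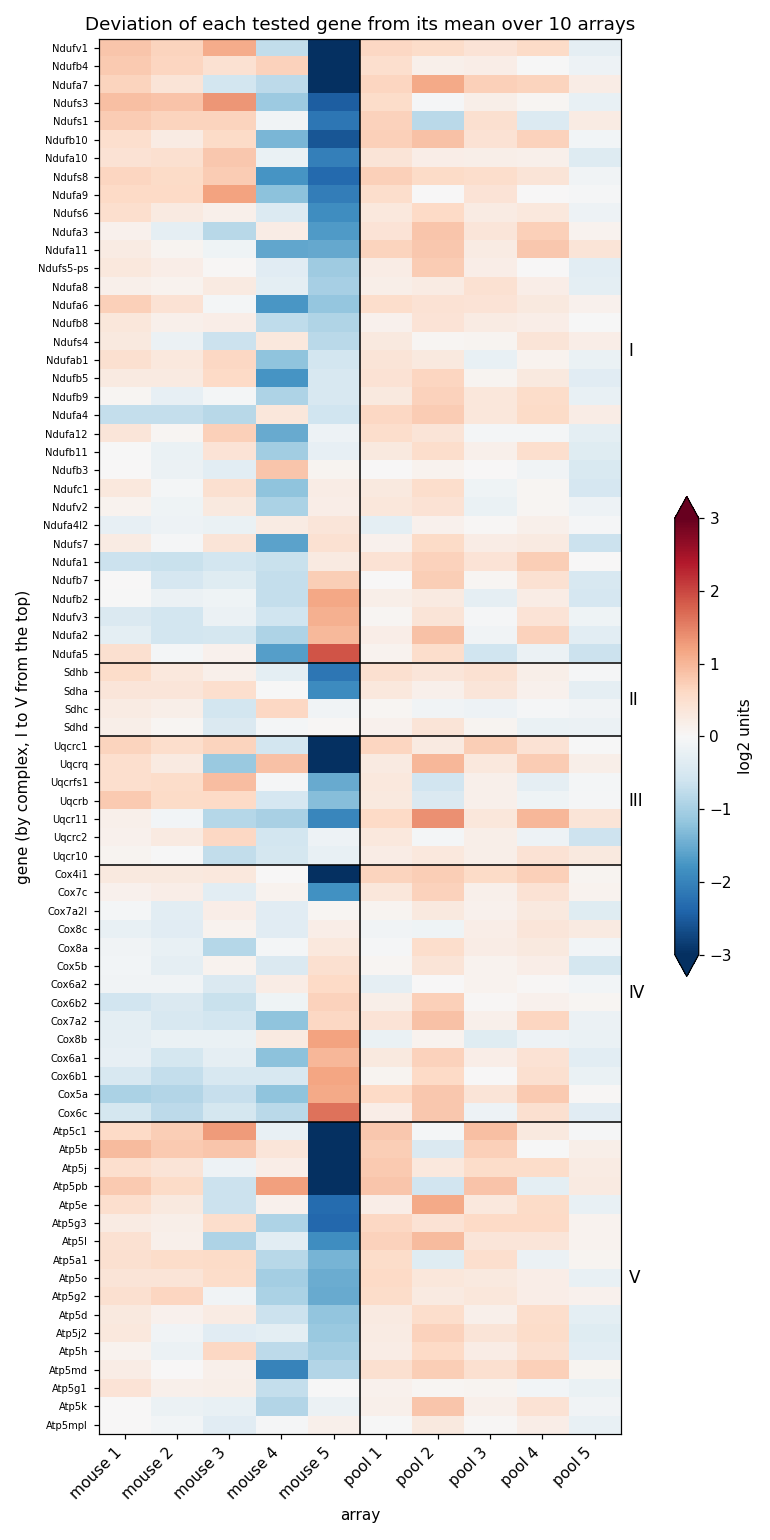
Each row is a tested member grouped by complex, each column an array, and the colour is the deviation from the gene's mean over 10 arrays (log2). Low values collect in mice 4 and 5, and high values in mouse 5 collect in complex IV.

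Among the core subunits of complex I, Ndufv1, which binds the flavin that accepts electrons from NADH, read 9.19, 9.04, 9.48, 7.63 and 4.64 in mice 1 to 5, and 8.99, 8.92, 8.77, 8.95 and 8.10 on the pool arrays. Mouse 5 lay far below every other array and mouse 4 below every pool array. Its SD was 2.01 between mice and 0.37 between pool arrays (limma adjusted p = 0.000121, and 0.063 without mouse 5). Its partner Ndufv2, on its brightest probe set, read 8.49, 8.27, 8.69, 7.44 and 8.58 in mice 1 to 5, and 8.20 to 8.82 in the pool. Mouse 4 was the one mouse outside the pool's range there, and the variance test was not passed (limma adjusted p = 0.135, and 0.2 without mouse 5). A second probe set of Ndufv2 was low in mouse 5, at 5.18, where the other mice read 6.89 to 7.69. Ndufs1, the largest iron-sulfur subunit, read 7.77, 7.66, 7.66, 6.89 and 4.83 in the individual mice and 7.70, 6.19, 7.49, 6.58 and 7.25 on the pool arrays. Its technical spread was itself wide (SD 0.64), with pool arrays 2 and 4 low, and it passed with all mice (limma adjusted p = 0.00603) but not without mouse 5 (0.67).

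Ndufs3, Ndufs7 and Ndufs8 belong to the arm of complex I that carries electrons to ubiquinone. Ndufs3 read 7.47, 7.42, 7.90, 5.48 and 4.09 in mice 1 to 5, and 7.11, 6.54, 6.74, 6.63 and 6.35 in the pool. Mice 1 to 3 were above all pool arrays and mice 4 and 5 below all of them. The variance call held without mouse 5 (limma adjusted p = 9.74e-05 with it, 0.00342 without it). Ndufs8 read 8.24, 8.17, 8.36, 5.81 and 5.26 in the individual mice and 7.49 to 8.31 on the pool arrays, so mice 4 and 5 were again both low (limma adjusted p = 0.00416 without mouse 5). Ndufs7 was low in mouse 4 alone on this probe set, at 7.69, where the other mice read 9.25 to 9.73 (limma adjusted p = 0.0288, and 0.0609 without mouse 5). Of the 6 core subunits tested, 5 passed with all mice (83.3%, against 66.8% of all tested genes). Without mouse 5, 2 passed, Ndufs3 and Ndufs8 (33.3%, against 20.3%).

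The accessory subunits of complex I surround the core and are needed for its assembly and stability. With all mice 23 of 34 complex I members passed the variance test (67.6%, against 66.8% of all tested genes), and without mouse 5 10 did (29.4%, against 20.3%). Besides Ndufs3 and Ndufs8 these 10 were Ndufa5, Ndufa6, Ndufa9, Ndufa11, Ndufa12, Ndufab1, Ndufb5 and Ndufb10. Ndufa6 read 7.54, 7.27, 6.79, 5.10 and 5.68 in mice 1 to 5, and 6.96 to 7.36 in the pool, with mice 4 and 5 apart from the rest. Its adjusted p without mouse 5 was 0.00143 in limma, the smallest of the 76 members. Ndufa9 read 7.35, 7.35, 7.97, 5.53 and 4.67 in the mice against 6.71 to 7.29 in the pool. Ndufab1, the mitochondrial acyl carrier protein, read 7.21, 7.05, 7.34, 5.52 and 6.18 against 6.52 to 7.11.

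Ndufa5 had opposed values in mice 4 and 5. It read 6.43, 5.89, 6.10, 4.31 and 7.85 in the individual mice and 6.07, 6.48, 5.35, 5.79 and 5.31 on the pool arrays, so mouse 4 was below and mouse 5 above every other array (limma adjusted p = 0.00105, and 0.0234 without mouse 5). Ndufb4, in contrast, departed in mouse 5 alone. It read 7.78, 7.67, 7.46, 7.69 and 3.78 in mice 1 to 5, and 6.86 to 7.50 in the pool. It had the smallest adjusted p of all members with all mice (limma, 8.71e-05) and 0.935 without mouse 5. At the other end, Ndufa4l2, a relative of Ndufa4 known from hypoxia, had the smallest SD between mice in complex I (0.28), with 5.00 to 5.61 in the individual mice and 4.95 to 5.41 on the pool arrays. Ndufs5-ps, which the rule takes in by its symbol, is a pseudogene of Ndufs5, and its probe set may read the parent gene.

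Succinate dehydrogenase, complex II, is also an enzyme of the citric acid cycle. Its flavoprotein Sdha read 9.94, 9.94, 10.09, 9.58 and 7.71 in mice 1 to 5, and 9.30 to 9.95 in the pool, and the iron-sulfur protein Sdhb read 9.50, 9.25, 9.10, 8.64 and 6.77 against 8.89 to 9.41. Mouse 5 was below every other array for both, and both passed the variance test (limma adjusted p = 0.00342 and 0.00142) but not without mouse 5 (0.853 and 0.517). Of the membrane anchors, Sdhc read 5.74, 5.67, 4.94, 6.11 and 5.38 in the individual mice and 5.34 to 5.56 on the pool arrays. Here mouse 3 was lowest and mouse 4 highest, and the call held without mouse 5 (limma adjusted p = 0.00696 and 0.0158). The other anchor, Sdhd, had about the same spread in both groups, with 6.35 to 6.96 in mice 1 to 5, and 6.59 to 7.16 in the pool (SD 0.23 and 0.24).

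In complex III, 5 of 7 members passed with all mice (71.4%, against 66.8% of all tested genes) and 2, Uqcrb and Uqcrq, without mouse 5 (28.6%, against 20.3%). The core protein Uqcrc1 read 9.04, 8.92, 9.05, 7.83 and 5.01 in the individual mice and 8.36 to 9.11 on the pool arrays (limma adjusted p = 0.000157, and 0.178 without mouse 5). Its partner in the core, Uqcrc2, read 9.33, 9.46, 9.82, 8.65 and 9.05 in mice 1 to 5, and 8.58 to 9.50 in the pool, and did not pass (limma adjusted p = 0.294, and 0.364 without mouse 5). On a second probe set of Uqcrc2 mouse 5 was low, as for Uqcrc1, at 5.37 where mice 1 to 4 had 6.99 to 8.15. The Rieske iron-sulfur protein Uqcrfs1 read 7.89, 7.93, 8.30, 7.35 and 5.85 in the mice against 6.81 to 7.69 in the pool (limma adjusted p = 0.00365, and 0.453 without mouse 5). Uqcrq, a small subunit that binds ubiquinone, read 8.27, 8.03, 6.66, 8.64 and 4.75 in the individual mice and 7.94 to 8.76 on the pool arrays. Mice 3 and 5 were low and mouse 4 was not (limma adjusted p = 0.000243, and 0.0402 without mouse 5). On 2 dimmer probe sets of Uqcrq above 4.58, mouse 5 was instead the highest mouse, at 5.05 and 5.75. On the first of these mouse 3 read 4.69 and mouse 2 4.66.

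Complex IV held the largest share of members that were highest in mouse 5, 11 of 14, against 8 of 34 in complex I, 0 in complexes II and III, 1 of 17 in complex V and 28.1% of all tested genes. With all mice 8 of 14 passed the limma variance test (57.1%, against 66.8% of all tested genes), and without mouse 5 0 did (against 20.3%), with 0 at an unadjusted p under 0.05 (33.8% of all tested genes). Cox5a, one of the subunits that surround the catalytic core, read 10.84, 10.89, 11.08, 10.57 and 12.91 in mice 1 to 5, and 12.38, 12.59, 12.16, 12.57 and 11.81 in the pool. Mice 1 to 4 lay below every pool array, and mouse 5 above every one (limma adjusted p for the variance = 0.00431, and 0.862 without mouse 5). Cox6c read 9.57, 9.32, 9.58, 9.29 and 11.74 in the individual mice and 9.77 to 10.91 on the pool arrays, the same order. Cox6a1, at 12.63, and Cox6b1, at 12.41, were also highest in mouse 5, while mice 1 to 4 read 10.40 to 11.39 and 10.51 to 10.75.

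Cox4i1, the ubiquitous form of subunit 4, went the other way. It read 10.82, 10.82, 10.85, 10.53 and 6.85 in mice 1 to 5, and 11.19, 11.27, 11.10, 11.25 and 10.61 in the pool, so mouse 5 was far below every other array (limma adjusted p = 0.000142, and 0.946 without mouse 5). Cox7c read 6.82, 6.91, 6.38, 6.80 and 4.88 in the individual mice and 6.82 to 7.40 on the pool arrays. These were the only members of complex IV below the mean of mice 1 to 4 in mouse 5. Cox5b read 10.45 to 11.38 in mice 1 to 5, and 10.36 to 11.27 in the pool, and Cox7a2l read 10.41 to 10.95 and 10.39 to 11.05. Neither passed the variance test (limma adjusted p = 0.442 and 0.726, and 0.848 and 0.776 without mouse 5).

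Forms of complex IV subunits known from muscle, lung, testis or brown fat were also on the array. Cox4i2, Cox7a1 and Cox7b2 were not tested and read 3.15 to 4.52 over mice and 3.24 to 4.07 over pool arrays. Cox6a2, Cox6b2, Cox8b and Cox8c read 4.10 to 6.96 in the individual mice and 4.81 to 6.77 on the pool arrays. Cox6a2 and Cox8c, with means of 6.36 and 6.40, were above the 75th percentile of all probe sets (5.94). Mouse 5 was the highest mouse for all 7. Cox8b, for example, read 5.00, 5.06, 5.07, 5.54 and 6.48 in mice 1 to 5, and 4.91 to 5.36 in the pool. The median signal of all probe sets in mouse 5 was 4.74 against 4.50 to 4.55 in mice 1 to 4, while its 95th percentile was the lowest. The part of this narrower range in the values of dim members was not tested.

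In the ATP synthase, complex V, 13 of 17 members passed with all mice (76.5%, against 66.8% of all tested genes) and 4 without mouse 5 (23.5%, against 20.3%). In mouse 5, 15 of 17 (88.2%, against 61.6% of all tested genes) were lower than the mean of mice 1 to 4 (12 of 17 after a second quantile normalization). The catalytic subunit beta, Atp5b, read 9.01, 8.84, 8.89, 8.40 and 3.92 in the individual mice and 8.79, 7.61, 8.77, 8.03 and 8.23 on the pool arrays. The gamma subunit of the rotating stalk, Atp5c1, read 9.75, 9.89, 10.43, 8.92 and 4.80 in mice 1 to 5, and 9.96, 9.10, 10.05, 9.44 and 9.11 in the pool. In both, mouse 5 was more than 3 log2 units below every other array (limma adjusted p = 0.000139 and 0.000117, and 0.859 and 0.251 without mouse 5). Subunit alpha, Atp5a1, departed less, with 9.28, 9.36, 9.37, 7.96 and 7.42 in the individual mice and 8.44 to 9.35 on the pool arrays, where mice 4 and 5 were both below the pool's range (limma adjusted p = 0.0127, and 0.15 without mouse 5).

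The members of complex V that passed without mouse 5 were Atp5g1 and Atp5g2, which encode the c subunit of the membrane ring, Atp5o, the stator protein that confers oligomycin sensitivity, and Atp5md, a small membrane subunit. Atp5md read 8.61, 8.41, 8.56, 6.40 and 7.53 in mice 1 to 5, and 8.48 to 9.14 in the pool. Atp5g2 read 6.54, 6.70, 5.96, 5.11 and 4.54 against 6.20 to 6.60, and Atp5o read 7.08, 7.09, 7.26, 5.68 and 5.21 against 6.48 to 7.30. Mice 4 and 5 were the lowest mice for all 3 (limma adjusted p without mouse 5 = 0.00961, 0.00733 and 0.0333). The remaining gene for the c subunit, Atp5g3, had 9.06 in mouse 4 and 7.63 in mouse 5 against 10.17 to 10.51 in mice 1 to 3, and did not pass without mouse 5 (limma adjusted p = 0.11). Atp5mpl, a small membrane subunit, had the smallest SD between mice in complex V (0.18 against 0.20 in the pool).

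**Figure D4:**
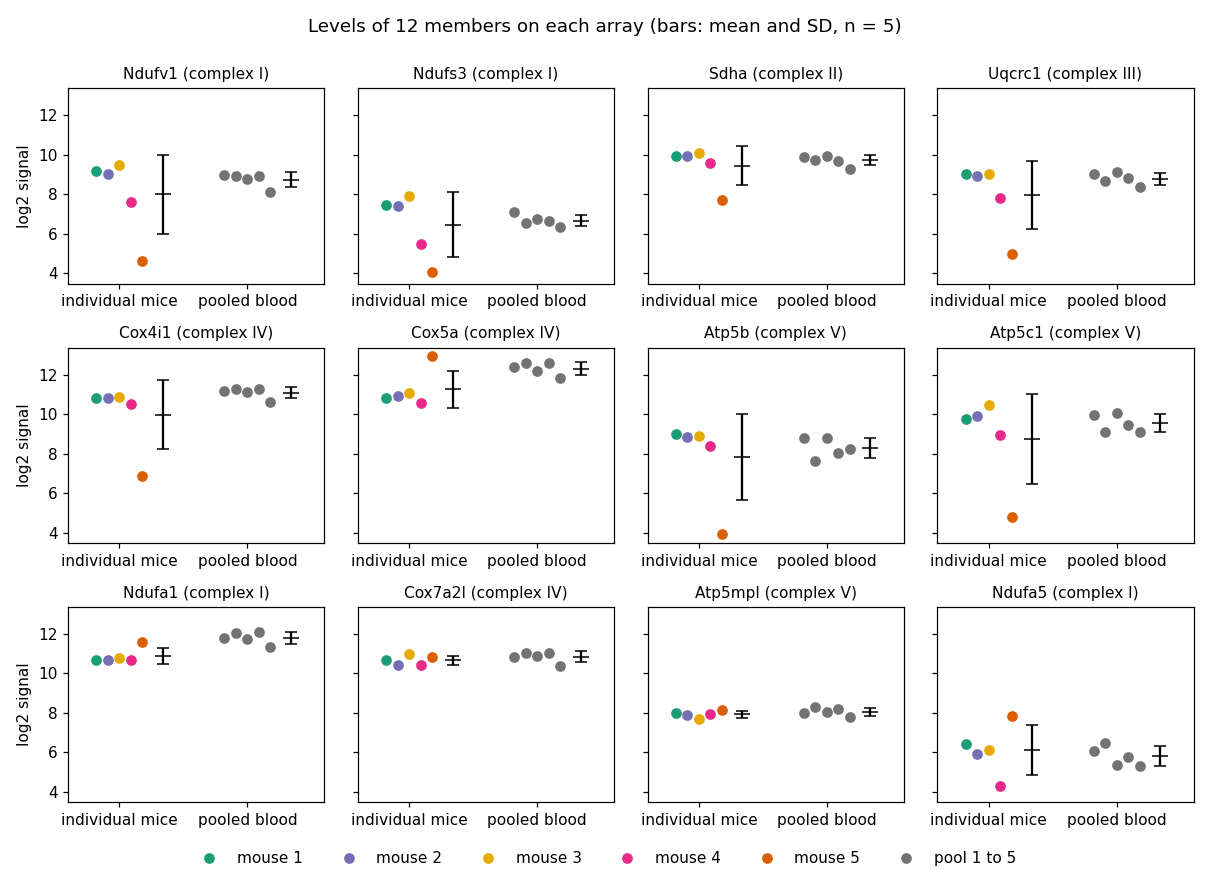
Points give the log2 level of 12 members on each of the 5 mouse arrays and the 5 pool arrays, with the mean and SD of each group (n = 5). Mouse 5 is far below the rest for Ndufv1, Cox4i1 and Atp5b and above it for Cox5a and Ndufa5, and mouse 4 is low for Ndufs3.

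Mouse 4 was low across most complexes. It was the lowest of mice 1 to 4 for 54 of 76 members (71.1%), against 52% of all tested genes, and below the mean of mice 1 to 3 for 58 of 76 (76.3%, against 63.2%; 51 after a second quantile normalization). The median of that difference was -0.66 over members, -0.22 over all tested genes and -1.70 over the 68 tested ribosomal protein genes (Rpl and Rps). Low values in mouse 4 were thus not particular to the members. By complex the median difference was -0.91 in complex I, -0.20 in complex II, -0.71 in complex III, -0.20 in complex IV and -0.86 in complex V. The values of complexes II and IV turned to 0.08 and 0.07 after a second quantile normalization, and that of complex IV to 0.09 with the median probe set per gene. Some members were higher in mouse 4: Ndufa4, now counted as a subunit of complex IV though its symbol places it in complex I here, read 6.28, 6.28, 6.18, 7.35 and 6.42 in the mice, and Ndufb3 read 7.61, 7.44, 7.30, 8.43 and 7.69. The B cell markers given above were also lowest in mouse 4, with Ms4a1 at 5.71 against 9.99, 10.02 and 11.65 in mice 1 to 3, and the erythroid markers were low there too, with Hba-a1 at 10.35 against 11.25 to 12.68 in mice 1 to 3. The part of those cells in the member values was not tested.

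Mouse 3 was low for a small group of members. Uqcrq at 6.66, Ndufa7 at 7.17, Atp5l at 5.39, Atp5e at 7.28, Atp5pb at 7.36 and Sdhc at 4.94 were each below mice 1 and 2, which read 8.03 to 8.27, 8.11 to 8.39, 6.48 to 6.79, 8.21 to 8.43, 8.58 to 8.78 and 5.67 to 5.74. These 6 genes were picked after their values were seen. Over all members mouse 3 was the lowest of mice 1 to 3 for 29 of 76 (38.2%), against 41.8% of all tested genes. The part of the long 3′ minus 5′ difference of the Actb control in mouse 3 was not tested.

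Different probe sets of a member often disagreed about mouse 5. Of the probe sets standing for the tested members, 30 were of the type _at, 30 of _a_at, which reads several transcripts of a gene, and 8 each of _s_at and _x_at, which can also read other genes. The members had 139 probe sets, 123 of them above 4.58, and 36 genes had more than 1 above it. In 15 of these 36 genes the difference between mouse 5 and the mean of mice 1 to 4 had both signs, and the median range within a gene was 2.00 (0.69 for mouse 4 against mice 1 to 3). The same was not counted over all genes with several probe sets, so whether members differ from other genes here was not tested. Of the 12 members of complex IV that were higher in mouse 5, 8 had a further probe set above 4.58. Of those 8, 7 (Cox5a, Cox5b, Cox6a1, Cox6b1, Cox6c, Cox7a2 and Cox7a2l) had at least 1 that was lower. Cox7a2l had 2 that were lower, by -1.04 and -2.97, where its brightest gave 0.18. Cox5a is an example: its first probe set, given above, read 12.91 in mouse 5, a second read 12.67 against 10.22 to 10.59 in mice 1 to 4, and the remaining one read 7.40 against 9.47 to 9.82. Likewise a second probe set of Cox6c read 7.37 in mouse 5 against 8.13 to 8.95. The direction of complex IV in mouse 5 was therefore that of the brightest probe sets, which were of the types _a_at and _x_at for all 8, and was not shared by all probe sets of its genes. In complex V, by contrast, 0 of 6 genes with more than 1 probe set above 4.58 had both signs.

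**Figure D5:**
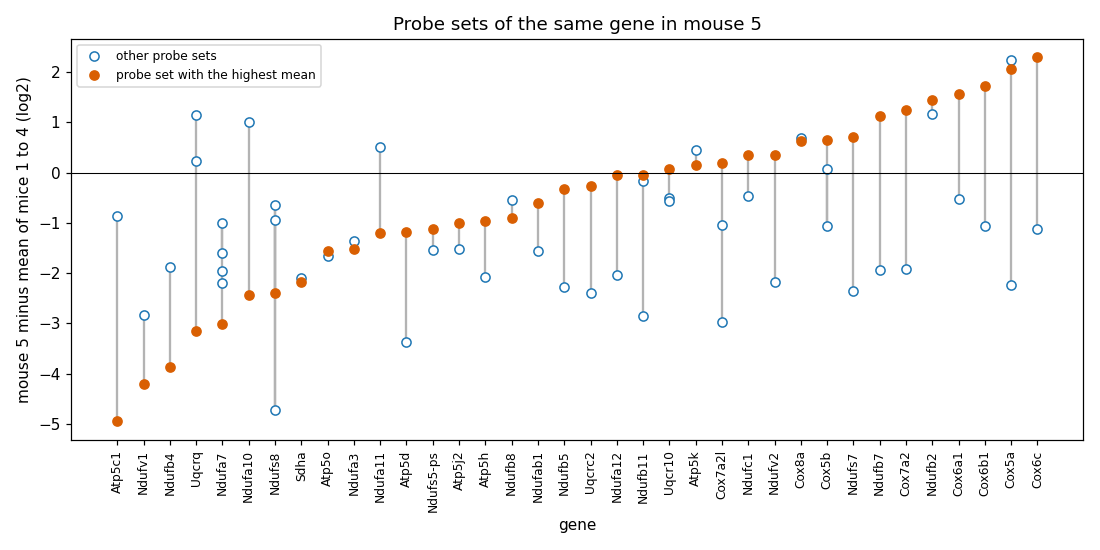
Each column is 1 of the 36 genes with more than 1 probe set above 4.58, and each point is 1 probe set's difference between mouse 5 and the mean of mice 1 to 4 (log2), filled for the probe set that stands for the gene. Cox5a runs from -2.24 to 2.24.

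In mean level between the 5 mice and the pool, 0 of 76 members passed the test (limma, error from the individual mice alone), with 0% of all tested genes called in either direction. At an unadjusted p under 0.05, 3 members were lower in the mice (3.95%, against 5.06% of all genes), and 0 were higher (0.233% of all genes). Those with the smallest p were Ndufa4, at -1.02 with a standard error of 0.34, Uqcr11 at -1.48 (0.54), Ndufa11 at -1.15 (0.45) and Ndufa1 at -0.91 (0.39), with adjusted p from 0.534 to 0.964 in limma. The median difference was -0.44 over members and -0.10 over all tested genes, and -0.25 against -0.00 without mouse 5. For Uqcr10 and Uqcr11, 2 small subunits of complex III, all 5 mice lay below all 5 pool arrays (2.63% of members, against 5.47% of all genes), and all 5 lay above the pool for 0 members (0.503% of all genes). For Uqcr10 the 5 mice lay below the pool on the brightest probe set only. On its other probe sets above 4.58 the groups overlapped. Uqcr11 read 8.65, 8.41, 7.64, 7.52 and 6.54 in the individual mice and 9.09, 9.86, 8.83, 9.48 and 8.89 on the pool arrays.

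Without mouse 5, Cox5a and Ndufa1 were lower in the mice than in the pool, by the only limma calls among the members (2.63%, against 1.72% of all genes), and 0 were higher (0.0186% of all genes). Cox5a differed by -1.46 with a standard error of 0.18 (adjusted p = 0.032 in limma), and its other 2 probe sets gave -1.41 and -1.49. Ndufa1, a small membrane subunit of complex I needed for its assembly, read 10.68, 10.67, 10.78 and 10.66 in mice 1 to 4 and 11.76, 12.02, 11.73, 12.07 and 11.34 in the pool. It differed by -1.09 with a standard error of 0.15 (adjusted p = 0.0388 in limma), and with mouse 5, at 11.59, by -0.91 (0.964). Over all settings tried, array weights included, the limma adjusted p of Cox5a ran from 5.73e-06 to 1 and that of Ndufa1 from 2.16e-05 to 1. Mice 1 to 4 lay below all pool arrays for 9 members (11.8%, against 7.99% of all genes): these 2, Cox6b1, Cox6b2, Cox6c, Cox7a2, Ndufv3, Uqcr10 and Uqcr11. They lay above all of them for 0 members (2.08% of all genes). On a further probe set the groups overlapped for Cox6b1, Cox7a2 and Uqcr10 but not for Cox6c. Of the 36 genes with more than 1 probe set above 4.58, 12 had both signs for mice 1 to 4 minus pool. This too was not counted over all genes. Without mice 4 and 5 limma called 4 members lower (5.26%, against 3.5% of all genes), Cox5a, Cox6b2, Ndufa1 and Ndufa4, and 0 higher (0.671% of all genes). The platelet marker Pf4 also read 11.54 to 12.14 in mice 1 to 4 and 13.01 to 13.35 in the pool, and the part of platelets in these differences was not tested.

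Within the pool, where no animal differs, members still shared deviations. Pool array 5 was the lowest of the 5 for 56 of 76 members (73.7%, against 37.2% of all tested genes), and pool array 2 was the highest for 41 (53.9%, against 18.6%). Complex levels in pool array 5 ran from -0.17 (complex I) to -0.02 (complex III), all below those of the other 4 pool arrays. After a second quantile normalization they were 0.002 (I), -0.11 (II), 0.26 (III), 0.08 (IV) and 0.21 (V). Pool array 5 was then the lowest of the 5 for complexes I and II only. A few core subunits were instead low on pool arrays 2 and 4: Ndufs1, Atp5a1, Atp5b and Atp5pb, the last with 8.83, 7.42, 8.86, 7.72 and 8.27. Across the 76 members, the deviation in mouse 5 correlated with that on pool arrays 1 to 5 with Pearson's r of -0.50, 0.52, -0.58, 0.43 and -0.12, and across all tested genes with r of -0.52, 0.34, -0.61, 0.48 and 0.44. These are descriptions across genes, which share the arrays and are not independent replicates.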

How the data were processed

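Values were deposited by the authors as log2 intensities, 1 per probe set and array, from Affymetrix MG-430 PM strips, with total RNA labelled in 2 cycles. RMA made them, per the submitters' processing notes; its version is not given in the sources used here. There are no counts, and precision is limited by the number of arrays. Of 45141 probe sets, 104 controls were set aside and 28898 carrying a single symbol were used, of which 28689 had a gene ID in RefSeq (GRCm38.p6), with 0 symbols changed. The tests took genes whose mean exceeded 4.58 (the median over probe sets).

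The variance between mice was divided by that between pool arrays, moderated with an intensity trend, and an F test was run one-sided each way (R 4.3.3 with limma 3.58.1 and the package data.table, version 1.17.8). Means were compared with the moderated error of the individual mice alone, two-sided. Benjamini-Hochberg adjustment ran over all tested genes, with a threshold of 0.05. Both tests were tested on simulated data. Plots were drawn with matplotlib 3.10.9, and promoters read with pandas 2.3.3 and numpy 2.4.6, in Python 3.11.15.

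The members, the lists of genes and the naming rule were chosen with earlier results of these data known. The rule names core subunits, per complex the 2 tested members with the largest and the 1 with the smallest SD between mice, members called without mouse 5, or without mice 4 and 5, the members called by mean or else the 4 with the smallest p, tissue-restricted forms, and the 2 most variable genes of each other list. Other members named were chosen after their values were seen. Alternatives covered the filter, normalization, probe set choice, moderation, test, replicate block and each array left out. The subunits encoded by mitochondrial DNA were not analysed here.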

Additional observations from a re-analysis of the deposited data

Results flagged for a closer look

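In groups of 5 arrays, a value was singled out when its gap to the nearest other array was more than 0.71 of the group's range. All 80 members and the 5 complex levels were screened, in the mice and in the pool. Of these 170 groups 21 had an array of this kind. Chance marks about 1 in 20 single groups, but these groups share the same 10 arrays and are not independent. The share over all tested genes was not counted, so the count cannot be read as a trait of the members. Mouse 5 accounted for 15. Among members it was low at 3.92 for Atp5b (other mice 8.40 to 9.01), 4.80 for Atp5c1 (8.92 to 10.43), 4.85 for Atp5j (8.13 to 8.79), 6.85 for Cox4i1 (10.53 to 10.85), 4.88 for Cox7c (6.38 to 6.91), 3.78 for Ndufb4 (7.46 to 7.78) and 7.71 for Sdha (9.58 to 10.09). It was high at 12.91 for Cox5a (10.57 to 11.08), 12.41 for Cox6b1 (10.51 to 10.75), 11.74 for Cox6c (9.29 to 9.58), 11.59 for Ndufa1 (10.66 to 10.78) and 10.26 for Ndufv3 (8.59 to 9.02). It was also high for 2 members too dim to be tested, at 3.90 for Cox7a1 (3.15 to 3.32) and 3.86 for Cox7b2 (3.37 to 3.50). The complex IV level in mouse 5 was 0.61, with -0.38 to -0.24 in the other mice.

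Mouse 4 was apart for Ndufa4, high at 7.35 with 6.18 to 6.42 in the other mice, and for Atp5k and Ndufs7, low at 7.99 (8.64 to 8.89) and 7.69 (9.25 to 9.73). In the pool, array 5 read 10.61 for Cox4i1 (the other arrays 11.10 to 11.27) and 8.10 for Ndufv1 (8.77 to 8.99), and array 2 read 5.49 for Cox6b2 (4.81 to 4.95).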

How the results depend on the processing

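In this paragraph each percentage in brackets is the share of all tested genes. The 52 variance calls among 76 members (66.8%) became 53 of 80 without a filter (64.1%) and 48 of 68 with the stricter filter (72.9%). They became 66 of 76 after a second quantile normalization (77.9%), 52 of 76 after centring (65.6%) and 48 of 75 with the median probe set (66.6%). Without _a_at, _s_at and _x_at probe sets they were 42 of 54 (66.2%). With 1 array left out the calls ranged from 17 without mouse 5 (20.3%) to 60 without pool array 5 (66.1%). They were 0 without mice 4 and 5 (0.708%), 27 with a plain F ratio (35%) and 0 with a Levene-type test (0%), where 0 members passed unadjusted. The 0 mean calls became 0 to 2 with 1 array left out, with 2 without mouse 5 (1.74%). They became 4 without mice 4 and 5 (4.17%) and 29 with array weights (36.5%). An ordinary 2-group fit (2.68%) and the same fit with a replicate block (1.75%) each called 0 members. Across all tested genes, the deviations of same-numbered mice and pool arrays within their groups correlated at 0.50, -0.26, 0.33, -0.19 and 0.44. These values cannot show whether the numbers pair the samples, because the state of single arrays also enters them. By design the pool came from other animals.

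After a second quantile normalization the complex levels in mouse 5 were 0.34 (I), -0.24 (II), -0.97 (III), 1.06 (IV) and -0.98 (V), and in mouse 4 0.074 (II) and -0.33 (III). Centring the arrays gave -1.17 (II) and -1.70 (III) in mouse 5, and the median probe set gave -1.28 (III). The all-gene median in mouse 5 was -0.44 as deposited, -0.05 and -0.62 after these scalings.

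Single ratios were followed for the 45 named members that were tested, of 76. Some of them were named for a large SD between mice or a call without mouse 5. A change of sign without mice 4 and 5 was partly set by that choice. Over all tested genes the median variance ratio was 6.57 with all mice and 0.637 without mice 4 and 5. Over the 76 members it was 7.73 and 0.365. A ratio below 1 has a log2 below 0. The log2 variance ratio of the 45 named members changed sign as follows. Apart from arrays left out, the cause was not tested. Quantile normalization gave Sdhd 3.42, Cox7a2l 1.45 and Atp5mpl 3.73; centring gave Cox5b -0.55, Cox8c -0.43 and Ndufa1 -0.0075; the median probe set gave Cox7a2l 1.82; no trend gave Sdhd 0.082. With 1 array left out the ranges were Sdhd -2.79 to 0.20, Ndufv2 -1.69 to 1.73, Uqcrc2 -0.27 to 1.76, Cox5b -1.12 to 2.13, Ndufa4 -2.70 to 2.25, Ndufs1 -0.19 to 3.63, Sdha -1.17 to 4.58, Cox4i1 -2.17 to 6.79, Cox5a -1.23 to 4.92, Atp5b -1.21 to 5.31, Cox8c -0.27 to 0.56, Ndufb4 -1.997 to 5.83, Cox6c -2.67 to 3.51, Ndufa1 -5.06 to 2.49 and Cox7a2l -1.43 to 0.98. Without mice 4 and 5, 35 of these 45 changed sign: Ndufv1 -1.35, Ndufv2 -1.23, Ndufs1 -5.76, Sdha -3.79, Sdhb -1.28, Uqcrc1 -4.36, Uqcrc2 -0.96, Uqcrfs1 -0.99, Cox4i1 -8.07, Cox5a -2.66, Cox5b -1.81, Atp5a1 -5.86, Atp5b -4.34, Atp5c1 -0.25, Cox6a2 -0.17, Cox6b2 -1.60, Cox8b -4.14, Cox8c -0.011, Ndufa4l2 -3.88, Ndufb4 -1.45, Sdhd 0.74, Cox6c -2.86, Atp5g1 -0.31, Atp5md -3.22, Atp5o -2.93, Ndufa11 -0.56, Ndufa5 -0.57, Ndufab1 -1.72, Ndufb10 -1.98, Ndufb5 -1.69, Ndufs3 -0.15, Ndufs8 -3.54, Uqcrb -1.86, Ndufa4 -4.07 and Ndufa1 -4.84.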

Other observations

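Genes that build, feed or regulate the complexes were counted in the same way. Of 32 tested assembly factors, 18 (56.2%) had a larger variance between the 5 mice than between pool arrays and 10 (31.2%) without mouse 5 (limma, adjusted p under 0.05), against 66.8% and 20.3% of all tested genes. Among them Sdhaf1, which helps mature the iron-sulfur protein of complex II, read 6.32, 6.11, 6.53, 4.17 and 5.06 in the mice and 5.89 to 6.39 in the pool. Coa5, needed for complex IV assembly, read 9.96, 10.09, 10.07, 9.59 and 7.00 against 11.16 to 11.69, and its mean was lower in the mice without mouse 5 by the limma test (-1.58, adjusted p = 0.0332), but did not pass with all mice (-2.17, 0.586). Of 19 electron carriers and ADP/ATP exchange genes the counts were 14 and 4 (73.7% and 21.1%). Slc25a3, the mitochondrial phosphate carrier, read 10.49, 10.31, 11.37, 9.91 and 6.48 in the mice, and the outer membrane channel Vdac2 read 9.74, 9.64, 10.14, 8.70 and 4.60. Atpif1, the inhibitor of the ATP synthase, was lower in mice 1 to 4 (8.73 to 9.16) than in the pool (10.46 to 11.22), with a difference of -1.84 without mouse 5 (limma adjusted p = 0.032) and -1.48 with it, at 10.82, which did not pass (0.728).

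Of 15 tested citric acid cycle enzymes 11 passed the variance test with all mice and 4 without mouse 5 (73.3% and 26.7%, against the same 66.8% and 20.3%). Fh1 (fumarase) read 8.40, 8.33, 8.90, 5.81 and 6.21, and Idh3b 7.98, 7.88, 8.78, 6.22 and 5.63, so mice 4 and 5 were both low. Of 17 regulators of mitochondrial gene expression 13 and 7 passed (76.5% and 41.2%). Tfam, which packages and transcribes mitochondrial DNA, read 7.06, 6.81, 7.17, 4.20 and 4.06 in the mice and 5.80 to 6.76 in the pool, and the translation factor Tufm read 7.33, 7.23, 7.02, 4.74 and 4.53 against 6.40 to 6.93. Of 15 glycolysis enzymes 13 passed with all mice (86.7%) and 0 without mouse 5 (limma, 2 at an unadjusted p under 0.05). Gapdh read 11.97, 11.71, 11.80, 11.76 and 7.45, and Pkm 11.31, 11.11, 10.73, 11.42 and 6.85. Whether the lists differ from each other was not tested.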
